A study of Mus musculus with 7 samples.

Results

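REV-ERBα, a heme-binding nuclear receptor that represses transcription, and RNA polymerase II (RNAP2), the enzyme that transcribes protein-coding genes, were compared at promoters of mouse gastrocnemius, a fast calf muscle. Of 21938 protein-coding genes on the autosomes, X and Y, 6777 had a region of at least 1 of the factors within 1 kb of an annotated transcription start site (TSS). They fell into 363 genes with both factors, 76 with REV-ERBα only and 6338 with RNAP2 only, and 15161 genes had neither. A region was a stretch of overlapping peaks that was present in both ChIP-seq replicates of a factor, and there were 1263 such REV-ERBα regions and 10752 such RNAP2 regions in the genome.

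All samples came from wild-type C57BL/6J males aged 5 months that were kept in 12 h of light and 12 h of darkness. REV-ERBα was immunoprecipitated at ZT 8 (Zeitgeber time, hours after lights on) with a mixture of antibodies against it, and RNAP2 at ZT 4 with clone 8WG1 (8WG16 in the series' design text), each in 2 biological replicates. The factors were therefore taken at different times and with different antibodies, so differences of factor, time and antibody cannot be told apart. Whole muscle holds several cell types. RNAP2 lay at 12 of 13 fibre marker genes and at 0 of 2 satellite cell, 0 of 3 endothelial, 0 of 4 leukocyte, 0 of 2 adipocyte and 0 of 2 smooth muscle markers, but at 2 of 3 fibro-adipogenic and 1 of 3 Schwann cell and neuron markers. REV-ERBα joined RNAP2 at 9 of the 13 fibre markers and at none of the others listed here. In bulk tissue, fewer cells of a type and less binding per cell cannot be told apart.

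REV-ERBα is made from the clock gene Nr1d1, peaks in the light phase and recruits the corepressor NCOR1 with HDAC3, which removes acetyl groups from histones. It binds alone to a half-site, AGGTCA, with an A/T-rich stretch before it, the same element that the activating ROR receptors use, and it can also be held on chromatin by other factors. RNAP2 gathers just downstream of active start sites, where it often pauses before elongation, and spreads over the bodies of strongly transcribed genes. In muscle, REV-ERBα is known for its part in mitochondrial content, autophagy and fuel use.

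Most deposited peaks were weak, so the strength of each region stands beside its count. The REV-ERBα lists held 28881 and 29934 peaks, of which 324 and 423 had a −log10 q of at least 1.3. The RNAP2 lists held 87870 and 168821 peaks, of which 10997 and 3622 reached that q. At the genes with both factors, REV-ERBα reached it in both replicates at 163 of 363 and in neither at 141, and RNAP2 reached it in both at 261. The lists carry no read counts, so the depth behind a single peak is unknown, and per the methods fewer reads were used for RNAP2 than for REV-ERBα. A −log10 p also depends on the antibody and the library, so a higher value of 1 factor than of the other at a gene describes the lists and not the amount bound.

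The sequences under some strong regions are printed as examples, and do not show how often an element occurs in a class. Each is 150 bases of mm10 centred on the mean summit, 5′ to 3′ in the direction of the gene, and holds no annotated exon. Regions that failed this or other rules for printing were passed over, some of them stronger. Capitals mark, on either strand, the nuclear receptor half-site AGGTCA or its variant GGGTCA, the E-boxes CACGTG (clock factors) and CAGCTG (myogenic factors), the GC box GGGCGG, the CCAAT box, the ETS word CCGGAAG, the TATA word TATAAA, the CREB word TGACGTCA and the AP-1 word TGANTCA. Rnf44 and Calm3 had strong REV-ERBα regions among genes with both factors, Arpc4 and Smc3 among REV-ERBα only genes, Dbp and Per2 among clock genes, and Klf6 had a strong RNAP2 region of the RNAP2 only genes.
Rnf44, chr13:54693966-54694115, minus strand: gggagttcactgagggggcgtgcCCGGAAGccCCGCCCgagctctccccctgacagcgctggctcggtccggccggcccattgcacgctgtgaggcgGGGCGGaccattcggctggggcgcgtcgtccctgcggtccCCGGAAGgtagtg
Calm3, chr7:16924294-16924443, minus strand: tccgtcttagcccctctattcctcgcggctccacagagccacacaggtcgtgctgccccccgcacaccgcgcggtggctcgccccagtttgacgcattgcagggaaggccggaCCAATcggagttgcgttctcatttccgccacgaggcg
Arpc4, chr6:113377884-113378033, plus strand: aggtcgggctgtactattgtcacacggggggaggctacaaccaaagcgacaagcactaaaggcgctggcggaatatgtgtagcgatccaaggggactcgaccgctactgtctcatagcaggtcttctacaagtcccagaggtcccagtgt
Smc3, chr19:53600159-53600308, plus strand: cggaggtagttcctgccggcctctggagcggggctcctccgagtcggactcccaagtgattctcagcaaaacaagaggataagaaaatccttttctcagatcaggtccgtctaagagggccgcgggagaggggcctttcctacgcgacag
Dbp, chr7:45704134-45704283, plus strand: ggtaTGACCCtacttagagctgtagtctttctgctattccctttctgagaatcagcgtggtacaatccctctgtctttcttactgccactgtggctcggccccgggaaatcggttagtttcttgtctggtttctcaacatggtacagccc
Per2, chr1:91459481-91459630, minus strand: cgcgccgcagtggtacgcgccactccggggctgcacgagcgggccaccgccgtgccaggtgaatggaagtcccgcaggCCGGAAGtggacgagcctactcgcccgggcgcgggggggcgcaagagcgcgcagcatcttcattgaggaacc
Klf6, chr13:5861119-5861268, plus strand: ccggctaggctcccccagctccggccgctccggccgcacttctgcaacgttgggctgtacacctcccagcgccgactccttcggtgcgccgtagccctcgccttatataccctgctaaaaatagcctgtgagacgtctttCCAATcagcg
The Rnf44 window was 74% G+C with 17 CpG dinucleotides and held both CCGGAAG, the core of ETS factor sites, and GGGCGG, the GC box bound by SP factors. The Dbp window was the only 1 of the 7 with AGGTCA or GGGTCA letters and had 4 CpGs. The Calm3 window held a CCAAT box and 16 CpGs, and the Arpc4 and Smc3 windows held none of the listed words.

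REV-ERBα was found mostly where RNAP2 was. REV-ERBα lay at 2% of all protein-coding genes and RNAP2 at 30.5%. Of the 439 genes with REV-ERBα, 82.7% had RNAP2. Of the 6701 genes with RNAP2, 5.42% had REV-ERBα, against 0.499% of the 15237 genes without RNAP2. These are counts of genes. Neighbours can share a region, and the 363 genes drew on 316 REV-ERBα and 319 RNAP2 regions. At the edge of the 1 kb limit, the REV-ERBα region of Mroh2a lay 968 bp from a TSS and was counted, and that of Olfr209 lay 1040 bp away and was not. For RNAP2 the corresponding genes were Lrg1 at 996 bp and B430305J03Rik at 1003 bp. The counts rest on the rule that both replicates hold a peak: without REV-ERBα replicate 1 or 2, 1103 or 999 genes had both and 813 or 793 REV-ERBα only, and without RNAP2 replicate 1 or 2, 44 or 21 genes had REV-ERBα only and 10118 or 10337 RNAP2 only. A region covered a TSS itself in 357 of the 439 REV-ERBα genes and 6215 of the 6701 RNAP2 genes.

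The X chromosome had few regions of either factor. Of its 948 protein-coding genes, 2 had REV-ERBα (0.211%), 92 had RNAP2 (9.70%) and 0 had both, against 2.1% and 31.8% of the 20807 autosomal genes. The REV-ERBα lists held 26 and 31 peaks on the X and 2403 and 2452 on chromosome 1, and the RNAP2 lists 360 and 626 against 6912 and 14030. The lists themselves are thus sparse on the X, and no statement on X-linked genes is made beyond this.

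RNAP2 was stronger at the genes with both factors. The median −log10 p of RNAP2 was 12.2 with REV-ERBα and 8.46 without it in replicate 1, a ratio of 1.44. In replicate 2 it was 8.09 and 4.93, a ratio of 1.64. Fold enrichment over input gave 6.62 against 5.09 and 4.67 against 3.58, a ratio of 1.3 in each replicate. The direction was thus the same in both replicates and on both scales, although 114 and 100 of the 363 genes lay at or below the RNAP2 only median. RNAP2 regions were also wider, with a median of 1112 bp against 664 bp. Genes, not animals, make up these distributions, and no test was run on them.

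The share of RNAP2 genes with REV-ERBα climbed most at the top of the RNAP2 range. In the weakest decile by RNAP2 strength (the lower −log10 p of the replicates) 20 of 671 genes, or 2.98%, had REV-ERBα. The share was 4.33% in the fifth decile, 7.01% in the ninth and 16.3%, 109 of 670, in the strongest. Ordered by replicate 1 alone the weakest and strongest deciles had 1.34% and 15.1%, and by replicate 2 alone 3.13% and 16.1%. The order of the middle deciles differed between replicates, while the strongest decile stood apart in both. The width of the RNAP2 region moved with this share as well, and its part was not tested: the widest decile of RNAP2 regions had 25.5%.

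**Figure D1:**
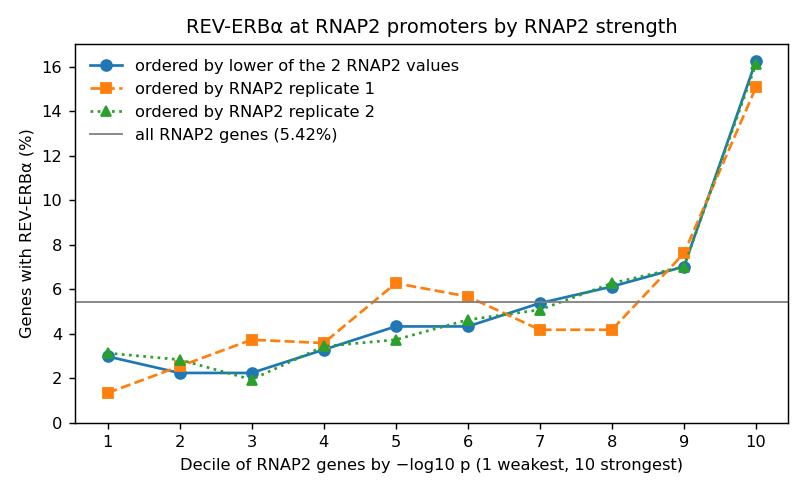
Genes with REV-ERBα (%, y axis) in each decile of the 6701 RNAP2 genes by RNAP2 −log10 p (x axis), ordered by the lower of the replicate values or by each replicate alone. The grey line is the share over all RNAP2 genes, 5.42%; the strongest decile lies between 15.1% and 16.3% in the 3 orderings.

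At the genes with both factors the strength of REV-ERBα did not follow that of RNAP2. Spearman's rho across the 363 genes was −0.11 between the strengths, while the width of the REV-ERBα region and RNAP2 strength had a rho of 0.44. Genes that share a region are counted separately here. Across genes, the replicates of REV-ERBα had a rho of 0.88 (439 genes) and those of RNAP2 one of 0.62 (6701 genes). No gene was among both the 10 strongest REV-ERBα and the 10 strongest RNAP2 regions of these genes, and both sets are described in turn.

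**Figure D2:**
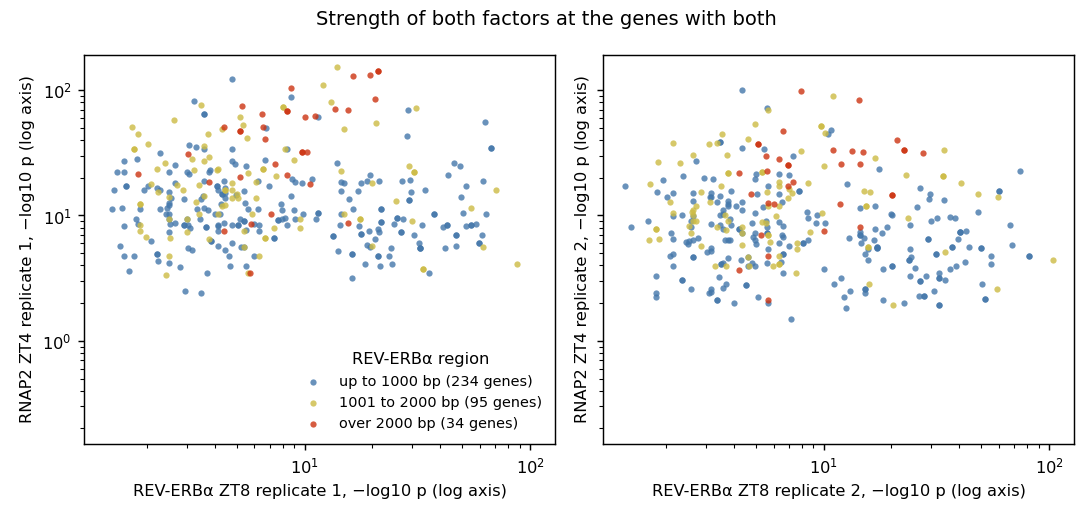
REV-ERBα −log10 p (x axis) against RNAP2 −log10 p (y axis) at the 363 genes with both factors, log axes, replicate 1 left and replicate 2 right, coloured by the width of the REV-ERBα region. The 34 genes with REV-ERBα regions over 2000 bp sit towards the top of the RNAP2 range, and the highest REV-ERBα values are narrower regions.

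The 10 strongest REV-ERBα regions of genes with both factors were 505 to 1519 bp wide and had summits close to a TSS. Rnf44, which encodes a RING finger protein, had REV-ERBα −log10 p values of 87.7 and 104 with summits at −132 and −136 bp from its nearest TSS. Its RNAP2 values were 4.08 and 4.44, at another TSS, so its REV-ERBα and RNAP2 regions did not share a promoter. Raly, an RNA-binding protein, had REV-ERBα values of 66.8 and 59.8 beside RNAP2 values of 34.3 and 15.8, in regions shared with the agouti gene. Psip1, a chromatin reader, had 62.1 and 58.5 beside low RNAP2 values of 5.65 and 2.60. Zfp219, a zinc finger factor, had 57.9 and 67.0 beside 8.49 and 8.33.

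The other strong REV-ERBα regions stood beside RNAP2 values from 2.15 to 14.1. Ss18, a subunit of the BAF remodelling complex, had REV-ERBα values of 63.9 and 55.1 and RNAP2 values of 10.3 and 4.09. Calm3, a calmodulin gene, had 54.9 and 59.3 beside 11.6 and 14.1. Ap3s1, of the AP-3 adaptor, and Atg12, the ubiquitin-like autophagy protein, share 1 promoter with 54.7 and 81.4 beside 8.46 and 4.71. Cmc2, a cytochrome c oxidase assembly factor, and the centromere gene Cenpn share another, with 59.5 and 51.9 beside 6.03 and 2.15. Pik3r3, a regulatory subunit of PI3 kinase, had 49.6 and 68.1 beside 14.02 and 5.86. None of the genes named here, the agouti gene included, had a BMAL1 region at its promoter.

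Strong and weak REV-ERBα regions differed in width and place. At a REV-ERBα strength of at least 12, a value chosen after the data were seen that falls in a continuous range (16 of all genes with REV-ERBα between 10 and 12, 8 between 12 and 14), were 111 of the 363 genes. Their REV-ERBα regions had a median width of 739 bp, and their summits lay within 250 bp of a TSS in 82.9% and 80.2% of genes in the replicates. For the 252 weaker genes these were 898 bp, 54.4% and 50.4%. RNAP2 medians were 9.29 and 5.86 at the strong REV-ERBα regions and 13.8 and 8.80 at the weaker ones. BMAL1 regions lay at 9 of the 111 and 28 of the 252 genes, and divergent promoters made up 29.7% and 17.5%.

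The strongest RNAP2 promoters with REV-ERBα held weaker REV-ERBα regions than those just described, which were ranked by REV-ERBα itself. In the strongest RNAP2 decile the median REV-ERBα strength was 5.11, as it was over all 363 genes with both factors. Tex14, a germ cell gene, had RNAP2 values of 122 and 101 and REV-ERBα values of 4.76 and 4.35. Summits of both factors lay upstream of its nearest TSS, at −805 and −821 bp for RNAP2. Both regions ended 391 bp short of a Tex14 TSS, so whether they belong to Tex14 is unknown. RNAP2 lay at 0 of 2 germ cell markers. Tob1, an antiproliferative protein, had 104 and 97.9 for RNAP2 and 8.67 and 7.95 for REV-ERBα. Polr2a, which encodes the largest RNAP2 subunit itself, had 152 and 89.5 beside 13.99 and 10.97. Txnip, an arrestin that curbs glucose uptake, had 129 and 82.8 beside 16.4 and 14.4. These genes were ranked by RNAP2, so higher values of RNAP2 than of REV-ERBα describe that choice. The RNAP2 replicates also differed, as at Polr2a.

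Among the others were 2 JUN family genes of the AP-1 factor. Jund had RNAP2 values of 81.7 and 71.5 and REV-ERBα values of 3.24 and 5.62. Junb had 61.5 and 48.5 beside 11.5 and 10.8, with REV-ERBα summits at −1262 and −1247 bp in a region apart from that of RNAP2. Actg1, a cytoskeletal actin, had 76.4 and 69.0 beside 3.49 and 5.65. Pnrc1, a nuclear receptor coactivator, had 48.6 and 54.0 beside 4.32 and 4.96, and Pvalb, the calcium buffer of fast fibres, had 74.8 and 46.8 beside 5.29 and 6.63. A BMAL1 region lay at Txnip and Pvalb among the genes named here.

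The REV-ERBα regions without RNAP2 were no weaker than those with it. Median REV-ERBα −log10 p was 9.08 and 8.31 in the 76 REV-ERBα only genes and 5.78 and 6.34 in the genes with both, and the median width was 600 bp against 838 bp. RNAP2 was not always missing there. The RNAP2 list of replicate 1 alone had a peak within reach at 33 of the 76, that of replicate 2 alone at 10, each list had peaks that did not overlap at 22, and 11 had no peak in either list. Where there was one, the strongest RNAP2 peak had a median of 4.50 in replicate 1 (55 genes) and 2.41 in replicate 2 (32 genes). The nearest RNAP2 region lay at a median distance of 45702.5 bp, within 10 kb for 12 of the 76 genes.

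Mical3, an oxidoreductase that acts on actin, led the REV-ERBα only genes with −log10 p values of 45.1 and 44.9 at −245 and −181 bp, and the RNAP2 list of replicate 1 had a peak of 3.11. Lrpprc, which stabilizes mitochondrial mRNAs, had 49.8 and 41.9 at 82 and 70 bp and no RNAP2 peak in either list. Tada3, of the SAGA and ATAC complexes, and Arpc4, of the ARP2/3 complex, share 1 region with 38.4 and 34.4, beside an RNAP2 peak of 7.43 in replicate 1. Lrpprc was the only gene among the 14 at the 10 strongest regions with no RNAP2 peak in either list.

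Noct, a rhythmic NADPH phosphatase also called nocturnin, had REV-ERBα values of 41.0 and 33.0 at 341 and 361 bp, with an RNAP2 peak of 12.1 in replicate 1 alone. Fbxl14, an F-box protein, had 52.1 and 30.4 beside an RNAP2 peak of 2.84 in replicate 1. Smc3, a cohesin subunit, had 25.4 and 44.0 beside 4.88 in replicate 1. These 3 genes are counted as REV-ERBα only because RNAP2 replicate 2 had no peak there. Ddx54 and Rita1, Ptdss1 and Mterf3, Wdr45, and Rpn2 and Mroh8 made up the rest of the 10 strongest regions, with REV-ERBα values between 18.4 and 36.9. Wdr45 was 1 of the 2 X-linked genes with REV-ERBα.

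The strongest RNAP2 promoters without REV-ERBα belonged to genes of various roles. H3f3b, which encodes histone H3.3, had RNAP2 values of 71.3 and 68.2 at 2 and 5 bp, and Fth1, the ferritin heavy chain, had 67.6 and 77.2 at −1 and −6 bp. Klf6, a Krüppel-like factor, had 93.4 and 60.6, Ppp1r3c, a glycogen-targeting subunit of protein phosphatase 1, had 59.4 and 75.1, and Ldha, the muscle lactate dehydrogenase, had 51.9 and 48.3. Eapp, Rsrp1, Tnrc6c, Ing1 and Gtf2a1 completed the 10 strongest. Their values lay in the range of the strongest genes with both factors. Across the 6338 genes, REV-ERBα had a peak in replicate 1 alone at 533, in replicate 2 alone at 639, in each list without overlap at 103, and in neither list at 5063.

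At the median, REV-ERBα summits lay slightly upstream of start sites and RNAP2 summits close to them. At the genes with both, the REV-ERBα summit had a median position of −56 bp in each replicate, and 63.1% and 59.5% of summits were within 250 bp of the nearest TSS. It lay upstream in 59.5% and 58.7% of these genes. The medians were −96 and −84 bp at the 111 genes with a REV-ERBα strength of at least 12. At the 252 weaker ones they were −13.5 and −20 bp. RNAP2 summits had medians of 9 and 7 bp, with 73.0% and 74.7% within 250 bp. The RNAP2 summits of RNAP2 only genes were tighter, at medians of −2 and 2 bp with 85.4% and 84.6% within 250 bp. The REV-ERBα summits of REV-ERBα only genes had medians of −66.5 and −109.5 bp.

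The distance between the factors was larger than the distance between replicates, with no common order. REV-ERBα and RNAP2 summits lay a median of 266 to 292 bp apart in the 4 pairings of replicates, against 82 bp between REV-ERBα replicates and 65 bp between RNAP2 replicates. Of the 363 genes, 74 had mean summits within 100 bp of each other, 103 between 100 and 250 bp, 86 up to 500 bp, 32 up to 1000 bp and 68 beyond. In 260 genes every REV-ERBα summit lay on 1 side of every RNAP2 summit, upstream in 142 and downstream in 118. Regions of the factors overlapped at 342 genes, or 94.2%. A pair of genes that share a divergent promoter counts once upstream and once downstream, and 21.2% of the 363 were divergent.

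**Figure D3:**
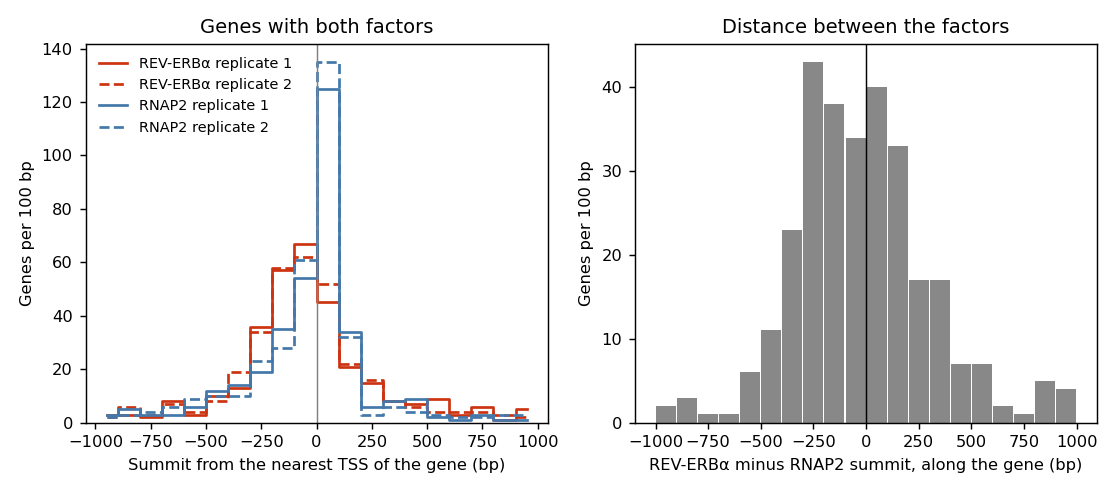
Left, summits of REV-ERBα and RNAP2 from the nearest TSS of the gene (bp, x axis) at the genes with both factors, as genes per 100 bp (y axis), each replicate a line; between 14 and 41 genes per line lie beyond 1000 bp and are not drawn. Right, REV-ERBα minus RNAP2 mean summit along the gene (bp), with negative values upstream, for the 295 genes within 1000 bp; the distances spread to both sides of 0.

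Some of the largest distances were between regions at different start sites of a gene. The REV-ERBα summit of Pkia, an inhibitor of protein kinase A, lay at −151 and −161 bp from 1 TSS while its RNAP2 region was at another, with a difference of −62545.5 bp along the gene. Aff1, a subunit of the super elongation complex, Rai1, C2cd2, Camsap2 and Clec16a had their factors between 41288.5 bp (C2cd2) and 71075.5 bp (Rai1) apart. Taking the closest pair of regions at each gene gave a median of 231 bp, against 254.5 bp with the strongest region of each factor.

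Wide REV-ERBα regions differed from narrow ones in RNAP2 strength and place. The 34 genes with regions over 2000 bp had RNAP2 medians of 47.5 and 25.3, against 10.2 and 6.43 for the 234 genes with regions up to 1000 bp. Their REV-ERBα summits lay a median of 4108 bp from the RNAP2 summit, against 198.5 bp, and only 7.35% of summits were within 250 bp of a TSS, against 73.1%. BMAL1 regions lay at 18 of the 34 and 9 of the 234. Myh4, the fast myosin heavy chain, had a REV-ERBα region of 27270 bp with values of 13.7 and 14.9, over a stretch that also held an RNAP2 region of 22628 bp with 71.3 and 31.9. Acta1, skeletal actin, had 19.6 and 21.2 over 5796 bp beside RNAP2 values of 131 and 39.9, with REV-ERBα summits at 3448 and 3586 bp. Atp2a1, the calcium pump SERCA1, had 15.6 and 14.6 over 21733 bp beside 68.9 and 25.7. In these 3 genes the wide REV-ERBα region covered much of the same stretch as RNAP2, and the part of RNAP2 strength in the wide regions was not tested.

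BMAL1, the activator of the clock, was a readout that the classes did not use. A BMAL1 region present in both replicates at ZT 4 lay within 1 kb of a TSS in 0.843% of all protein-coding genes. The share was 10.2% of genes with both factors (37), 5.26% of REV-ERBα only genes (4), 1.37% of RNAP2 only genes (87) and 0.376% of genes with neither (57). Of the 37 genes, 18 had REV-ERBα regions over 2000 bp. Clock genes, which the study chose partly on these samples, made up 9 of the 37, and the 2 sets overlap. The BMAL1 lists held 92 and 36 peaks with a −log10 q of at least 1.3, so most of these BMAL1 regions are weak.

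Clock genes had the largest share of REV-ERBα among the 28 gene lists. Of 25 clock genes, 16 had RNAP2 and 9 of these (56.2%) also had REV-ERBα, beside 5.42% over all RNAP2 genes. The list holds genes that the study chose partly on these samples, and it is not independent evidence. The 9 were the repressors Per1, Per3, Ciart, Bhlhe40 and Bhlhe41, the PAR bZIP factors Dbp and Tef, and Nr1d1 and Nr1d2, which encode REV-ERBα and REV-ERBβ. All 9 had a BMAL1 region. Arntl, which encodes BMAL1 and carries a known REV-ERBα element, was RNAP2 only by this rule, as were Cry1, Cry2, Csnk1d and Rora among others. Cry1 had a REV-ERBα peak of 11.8 in replicate 2 alone, and Arntl and Cry2 had none in either list. The study did detect REV-ERBα at the Bmal1 promoter by ChIP-qPCR at ZT 8. It also lists Cry1 and Cry2 among genes with shared BMAL1 and REV-ERBα peaks, enhancers included.

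Dbp had REV-ERBα values of 9.78 and 20.2 at −901 and −857 bp and RNAP2 values of 32.2 and 14.5. Tef had 14.5 and 16.1 at 85 and −12 bp beside 22.5 and 15.5. Ciart, a corepressor of the clock, had 9.55 and 15.9 beside 9.34 and 2.86. Ciart was thus the only clock gene with both factors whose REV-ERBα value was above its RNAP2 value in each replicate.

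Nr1d1 had REV-ERBα values of 6.24 and 5.39 beside RNAP2 values of 18.97 and 11.7, and Nr1d2 had 10.8 and 7.01 beside 19.6 and 21.1. Per1 had 4.27 and 6.33 at −376 and −286 bp beside 12.4 and 14.8, and Per3 had 3.48 and 3.84 beside 13.4 and 9.43. RNAP2 was higher than REV-ERBα in each replicate at these 4 genes. Bhlhe40 had 7.09 and 7.31 beside 10.4 and 18.5, and Bhlhe41 had 5.84 and 5.65 beside 10.3 and 11.9. Per2 was the 1 clock gene with REV-ERBα only, with 7.49 and 16.3 at −254 and −210 bp, and the RNAP2 list of replicate 1 alone had a peak of 7.49 there.

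**Figure D4:**
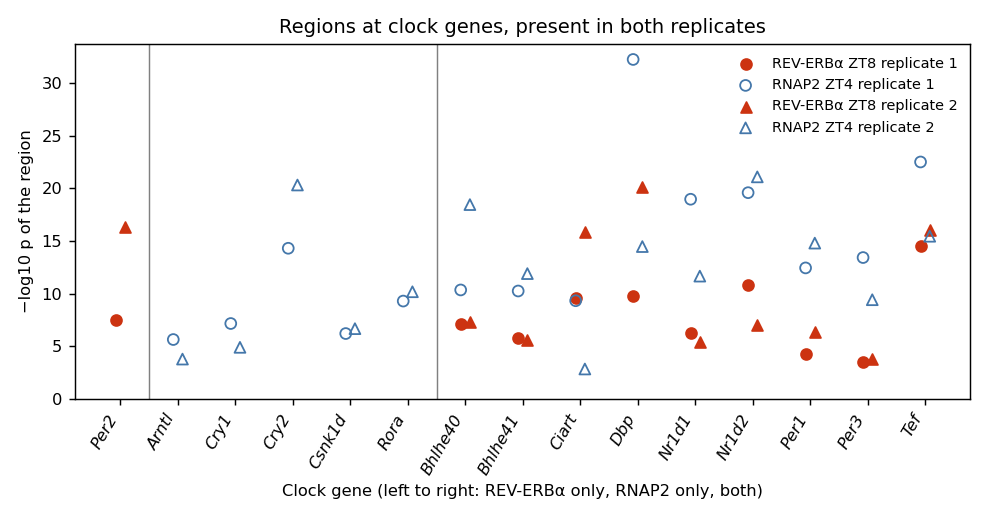
The −log10 p (y axis) of REV-ERBα (filled) and RNAP2 (open) regions at 15 clock genes with a region of either factor, replicate 1 as circles and replicate 2 as triangles. From left to right stand Per2 (REV-ERBα only), 5 genes with RNAP2 only and the 9 with both, where RNAP2 reaches 32.2 at Dbp.

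Fibre genes also had large shares. Of 34 sarcomere genes with RNAP2, 12 (35.3%) had REV-ERBα: Acta1, Mybpc2, Myh4, Myl1, Mylpf, Myom1, Tcap, Tnnc2, Tnni2, Tnnt3, Tpm1 and Ttn. The median width of their REV-ERBα regions was 3096.5 bp, and without REV-ERBα regions over 2000 bp the share was 17.6%. Myom1, an M-band protein, stood apart with a narrow region of 523 bp, REV-ERBα values of 32.6 and 40.2 at −224 and −297 bp, and RNAP2 values of 5.52 and 7.37. Of 24 calcium handling genes with RNAP2, 8 (33.3%) had REV-ERBα. Calm2 had 28.7 and 17.6 beside RNAP2 values of 68.9 and 23.4. Of 33 glycolysis and glycogen genes, 6 (18.2%) had REV-ERBα, all in the top decile of RNAP2 strength, and with only peaks past the q of 1.3 the share was 3.70% against 3.27% over all RNAP2 genes. Gapdh had 13.1 and 10.1 beside 80.4 and 45.3.

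Strong RNAP2 and REV-ERBα went together in these lists. At or above the 90th percentile of RNAP2 strength, REV-ERBα lay at 10 of 14 sarcomere genes (71.4%) and 5 of 6 calcium handling genes (83.3%), beside 16.1% of all 696 genes at that level. Below it the shares were 10%, 16.7% and, over all genes, 4.18%.

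Shares in hormone, stress and autophagy genes were also above the share over all RNAP2 genes, but those of the hormone and autophagy lists did not stay so under a stricter rule. This rule kept only peaks of REV-ERBα and of RNAP2 that reached the q of 1.3. The shares were then 0% of glucocorticoid targets and 0% of autophagy and lysosome genes. That of immediate early genes was 9.09%, against 3.27% over all RNAP2 genes. It rests on few genes, since REV-ERBα reached the q in both replicates at 2 of the 6 with both factors. Of 26 glucocorticoid target genes with RNAP2, 6 (23.1%) had REV-ERBα: Ddit4, Dusp1, Fbxo32, Klf9, Per1 and Trim63. None of these REV-ERBα regions reached the q of 1.3 in both replicates. Trim63 and Fbxo32, the muscle ubiquitin ligases of atrophy, had REV-ERBα values of 3.57 and 6.34 and of 1.55 and 4.09. Of 27 immediate early genes, 6 (22.2%) had REV-ERBα: Dusp1, Egr1, Fos, Fosl2, Junb and Jund. Fos, the AP-1 subunit, had 14.5 and 26.9 at −167 and −279 bp beside RNAP2 values of 15.8 and 16.4, with values near each other in replicate 1.

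Of 29 autophagy and lysosome genes with RNAP2, 6 (20.7%) had REV-ERBα. They were Atg12, Atg101, Atg16l2, Gabarap, Tfeb, the regulator of lysosomal genes, and Ulk2, a kinase that starts autophagy. Atg101 had REV-ERBα values of 17.2 and 15.7 and Ulk2 8.33 and 4.36. The share was near the same above the 90th percentile of RNAP2 strength, 1 of 5, and below it, 5 of 24.

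Of 20 genes with RNAP2 that the study names, 8 (40.0%) had REV-ERBα: Atg12, Dgat2, Fbxo32, Fos, Klf9, Mylk4, Tcap and Trim63. These too were chosen by the study partly on the same samples. Dgat2, which makes triglycerides, had REV-ERBα values of 21.4 and 19.9 at −184 and −178 bp beside RNAP2 values of 18.8 and 10.3. Tcap, the telethonin of the Z-disc, had 21.2 and 22.7 beside 141 and 33.2. Trp53, which encodes p53, was REV-ERBα only, with 7.31 and 6.35 and an RNAP2 peak of 4.61 in replicate 1.

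Among chromatin modifiers 11 of 83 (13.3%) had REV-ERBα. Hdac2, a histone deacetylase, had REV-ERBα values of 50.3 and 42.2 beside RNAP2 values of 10.4 and 4.27, Eed, of the Polycomb complex PRC2, 35.6 and 18.4 beside 3.45 and 2.12, and Kmt5b, a methyltransferase of histone H4, 31.1 and 34.3 beside 72.1 and 33.5. All 3 had REV-ERBα summits within 250 bp of a TSS in both replicates. Of 71 splicing genes 7 (9.86%) had REV-ERBα, and of 67 genes of RNAP2 and the general factors 4 (5.97%). Ube2b, a ubiquitin-conjugating enzyme, had 70.3 and 48.4 beside RNAP2 values of 15.9 and 14.9.

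Several lists of basic cell machinery lay below the share over all RNAP2 genes, each on 2 genes or fewer with REV-ERBα. Other such lists did not: translation initiation had 2 of 33 (6.06%), and splicing and the general factors were given above. REV-ERBα lay at 1 of 71 respiratory chain genes (1.41%), 2 of 78 genes of the cytosolic ribosome (2.56%), 1 of 51 of the mitochondrial ribosome (1.96%), 1 of 28 proteasome genes (3.57%) and 1 of 103 vesicle traffic genes (0.971%). It lay at 2 of 132 Zfp zinc finger genes (1.52%) and at none of 27 replication histones, 25 tRNA synthetases and 7 olfactory receptors with RNAP2. Counts this small were not tested against the share over all RNAP2 genes. With only peaks past the q of 1.3 the Zfp share was 3.39%, against 3.27% over all RNAP2 genes. Lipid metabolism, 2 of 39 (5.13%), was near the share over all RNAP2 genes. Of the genes with REV-ERBα in the lists below that share, 4 had strong REV-ERBα regions. Uqcrh, of respiratory complex III, had 33.5 and 15.7, Psma7, of the proteasome, 21.8 and 32.6, Rpl19 15.02 and 18.4, and Mrps27 13.4 and 20.2. These 4 REV-ERBα regions each reached the q of 1.3 in both replicates. Others were weaker, with 6.26 and 4.99 at Rpl22, 7.31 and 6.12 at Zfp335 and 1.97 and 3.67 at Sec14l1, the 1 vesicle traffic gene.

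**Figure D5:**
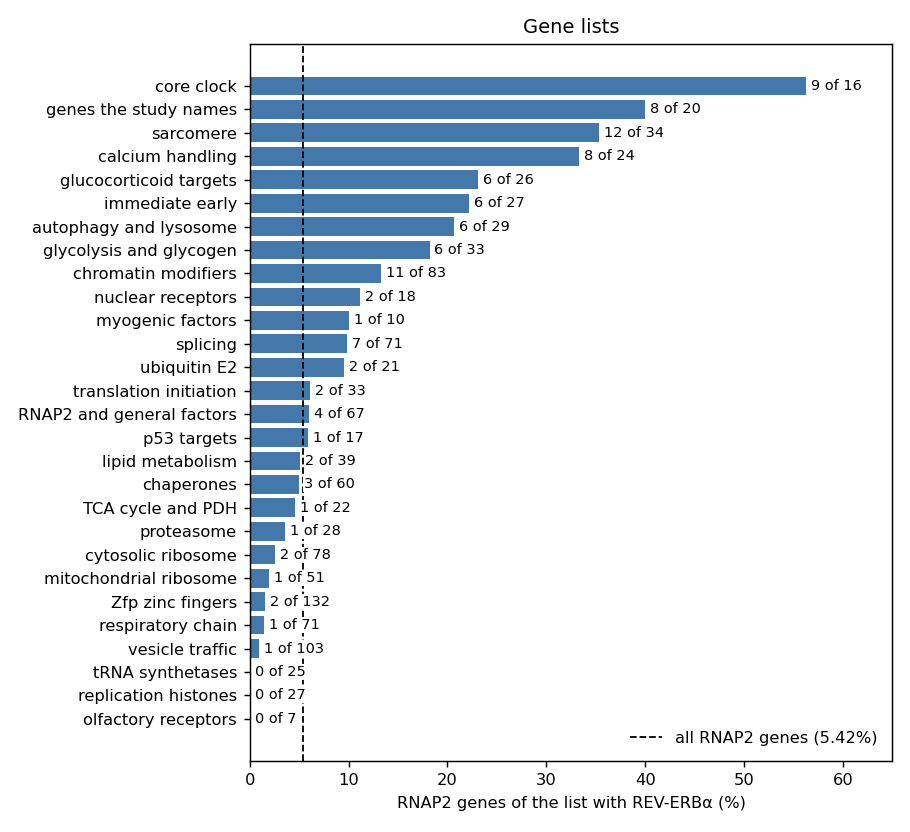
RNAP2 genes of each gene list that also had REV-ERBα (%, x axis), with the count beside each bar and the 5.42% of all RNAP2 genes as a dashed line. The core clock (9 of 16), the genes the study names (8 of 20), sarcomere (12 of 34) and calcium handling (8 of 24) reach furthest, and the lists of ribosome, respiratory chain and vesicle traffic genes stay under the line.

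Promoters of the 3 classes were richer in G+C and CpG than those of genes with neither factor. From 250 bp before to 50 bp after the TSS farthest 5′, median G+C was 62.3% with both factors, 57.7% with REV-ERBα only, 61.0% with RNAP2 only and 52.0% with neither, and the median number of CpGs was 23, 17, 21 and 6. AGGTCA or GGGTCA, on either strand, occurred in 28.4%, 27.6%, 24.3% and 26.7%, and in 26.1% of all 21938 promoters. CACGTG, the E-box bound by BMAL1 with CLOCK, occurred in 14.3%, 10.5%, 10.7% and 6.36%, and in 7.75% of all. GGGCGG occurred in 65.01%, 48.7%, 63.4% and 33.9%, and in 43.0% of all.

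The summits were also read in windows of 300 bp, counted once per region. AGGTCA or GGGTCA occurred in 25.9% of REV-ERBα summits with both factors and 21.5% of those of REV-ERBα only genes, against 23.1% of RNAP2 summits of RNAP2 only genes and 24.9% of windows centred on all TSSs. The longer RORE, which includes the half-site, was found in 2 of 316 and 1 of 65 REV-ERBα summits, or 0.633% and 1.54%. It was found in 0.289% of RNAP2 only summits and 0.524% of all TSS windows. CCGGAAG occurred in 9.81% of REV-ERBα and 7.84% of RNAP2 summits with both factors, and in 20.7% of RNAP2 only summits and 11.5% of all TSS windows. TATAAA occurred in 6.65% and 10.03%, in 4.87% and in 10.7%. These are counts of letters, without a test, and say nothing on binding. REV-ERBα summits of the 884 regions that were not the strongest at any protein-coding gene had a median G+C of 45.3% and 2 CpGs. At the summits with both factors these were 64.3% and 25. Weaker regions within 1 kb of a TSS can be among the 884. Of these 884 summits, 30.3% held AGGTCA or GGGTCA and 1.24% the RORE.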

How the data were processed

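ChIP-seq peak lists of gastrocnemius were used, 2 for REV-ERBα at ZT 8, 2 for RNAP2 at ZT 4 and 2 for BMAL1 at ZT 4. Per the labels and methods, the authors mapped reads to mm10 with BWA 7.12, dropped duplicates and reads that map to several places, thinned the replicates to like numbers of reads and ran MACS2 2.1.1 for each sample with input DNA as control and a p-value limit of 0.05. The deposited fold enrichment (a ratio), −log10 p and −log10 q are those of each summit. The deposited score was not used. The study gives the reads per library after thinning, more for REV-ERBα than for RNAP2. Reads were not used here, so read counts per peak are unknown and no interval was computed.

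Peaks of a factor overlapping by at least 1 bp were merged, and regions with a peak in both replicates were kept. The strongest peak of each replicate gave the values, and the lower −log10 p the strength of the region. A gene had a factor when a region lay within 1 kb of any TSS in GENCODE M21, and where several did, the strongest was described. Summits are given from the nearest TSS along the gene. The classes, and the shares in gene lists, deciles of RNAP2 strength and sequences, are descriptions without a test, and replicates are given side by side. 1 gene was kept per symbol in lists. Sequences were read from GRCm38, and motifs were searched as letters on both strands.

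Named genes are the 10 strongest regions of each class by each factor, all clock genes and genes the study names, up to 4 with the strongest REV-ERBα in each other list, the largest summit distances and the genes at the 1 kb limit. Other members of lists are named where a count is broken down. The members and lists were chosen with earlier results of these data known. Some genes that the rule names are not reported here. An exploratory search for enriched short words is not reported. The code was tested on simulated peaks. Python 3.11.15, numpy 2.4.6, pandas 2.3.3, scipy 1.17.1, pysam 0.24.0 and matplotlib 3.10.9 were used. Alternatives were stricter p and q, equal list sizes, fewer RNAP2 regions, another overlap rule, distances of 500 and 2000 bp, summits in place of edges, the TSS farthest 5′, genes without shared regions, fold enrichment, no wide regions and each replicate left out. Leaving out X and Y, leaving out REV-ERBα regions over 2000 bp and taking the closest pair of regions were added after seeing the data.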

Additional observations from a re-analysis of the deposited data

How the results depend on the processing

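No paired analysis was possible because no result here comes from a test, and REV-ERBα and RNAP2 were taken at different times. The counts depend on both replicates being required. Leaving out 1 replicate moved the genes with both factors from 363 to between 395 and 1103, REV-ERBα only from 76 to between 21 and 813, and RNAP2 only from 6338 to between 5598 and 10337. It moved the ratio of median RNAP2 strength from 1.61 to between 1.22 and 2.21, the median distance between summits from 254.5 bp to between 278.5 and 657.5 bp, and the REV-ERBα share in the strongest RNAP2 decile from 16.3% to between 11.9% and 30.7%. The highest counts of genes with REV-ERBα came without REV-ERBα replicate 1 (1103 and 813) or replicate 2 (999 and 793), where peaks of 1 list sufficed, and the lowest REV-ERBα only counts without RNAP2 replicate 1 (44) or replicate 2 (21). RNAP2 was stronger at genes with both factors under every alternative run.

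With a −log10 q of at least 1.3, 108 genes had both and 3193 RNAP2 only, with a ratio of 1.34, a distance of 282 bp and a top decile share of 9.70%. A −log10 p of at least 3 gave a ratio of 1.44 and a share of 14.2%. With as many RNAP2 as REV-ERBα regions there were 156, 283 and 1181 genes, a ratio of 1.31, a distance of 319 bp and a share of 33.8%. Fold enrichment gave a ratio of 1.35. Distances were 277.5 bp with 2000 bp from a TSS, 232.5 bp both with summits in place of edges and with the TSS farthest 5′, 246.25 bp without REV-ERBα regions over 2000 bp and 231 bp for the closest pair. The share was 15.3% with a larger overlap of replicate peaks, 12.8% with summits, 15.1% with the TSS farthest 5′ and 13.1% without wide REV-ERBα regions. The cause of these moves was not tested, beyond the smaller number of regions that stricter rules leave. The share in sarcomere genes lay between 29.3% and 67.6% without 1 replicate and in clock genes between 42.9% and 75%, beside 3.76% to 16.5% over all RNAP2 genes. At the q of 1.3, asked of the peaks of both factors, all RNAP2 genes had 3.27%. The shares of sarcomere (33.3%), clock (38.5%) and calcium handling genes (22.2%) stayed above that share. Those of autophagy and glucocorticoid genes were 0%, that of glycolysis genes was 3.70% and that of Zfp genes 3.39%.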
